A study of Homo sapiens with 12 samples.

Results

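The G1 cyclins, their kinases and the inhibitors of those kinases were followed through 10 genes: the D cyclins CCND1, CCND2 and CCND3, the E cyclins CCNE1 and CCNE2, the kinases CDK4 and CDK6, and the inhibitors CDKN1B, CDKN2A and CDKN2B. Every probe set that the platform annotation assigned to 1 of these symbols alone was taken, which gave 26 of the 54675 probe sets of the array. Membership was set by gene name, with earlier results of these data known. Testing was limited to probe sets brighter than the table median, 136.5, on at least 3 arrays, which 21 of the 26 were, and each of the 10 genes kept at least 1. The other 5 probe sets (CCND2 200952_s_at, CCND3 1562028_at, CCNE1 242105_at, CDKN2A 211156_at and CDKN2B 207530_s_at) were too dim for the test, at 4.06 to 211 over all arrays.

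Progress from G1 into S phase is driven by cyclin D bound to CDK4 or CDK6 and, later, by cyclin E bound to CDK2, which together phosphorylate the retinoblastoma protein and release E2F transcription factors. CDKN2A (p16) and CDKN2B (p15) bind CDK4 and CDK6 and block them, whereas CDKN1B (p27) acts mainly on complexes of CDK2. CCND1 is a well known target of growth factor signalling, and loss of the chromosome 9 segment that holds CDKN2A and CDKN2B is a recurrent lesion of many tumours, sarcomas among them.

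The cells were 3 human lines of soft tissue sarcoma. The labels call A-204 a rhabdomyosarcoma line, SK-LMS-1 a leiomyosarcoma line and VA-ES-BJ a line of epithelioid sarcoma. Each was left untreated or received taurolidine at 250 µmol/l, TRAIL at 50 ng/ml, or both agents together, for 6 hours, and each line and treatment was measured on 1 array, 12 in all. The labels give no time for the untreated cells. Taurolidine is a taurine derivative with antimicrobial use that also kills tumour cells in culture, and TRAIL is a ligand of death receptors. Each tumour type was thus represented by a single line, no treatment was repeated within a line, and the 4 arrays of a line shared its cells. The labels do not say whether they came from separate cultures, so p-values reflect nothing beyond the spread of these 12 arrays, which may be technical in part. The arrays measured RNA of whole cultures, in which fewer cells of a kind and less RNA per cell cannot be told apart.

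The labels were checked against defining markers in the untreated arrays. The skeletal muscle regulators MYOD1, MYOG and MYF5 read 28.6, 10.2 and 5.32 in A-204, all below the table median, and the muscle filament gene DES read 132, so these muscle markers were not seen in the line labelled rhabdomyosarcoma. The smooth muscle genes TAGLN and CNN1 read 9763 and 661 in SK-LMS-1, above both other lines, whereas ACTA2 read 1686 there against 1667 and 4980 in A-204 and VA-ES-BJ, and DES (126.6) lay below the table median. In VA-ES-BJ the keratin gene KRT19 read 16189 against 9.33 and 27.9 in the other lines, whereas EPCAM (130.5) and MUC1 (292) lay below A-204. SMARCB1, whose loss is typical of epithelioid sarcoma, read 152 against 1235 for A-204 and 3530 for SK-LMS-1. The leukocyte markers PTPRC, CD3E and CD14 read between 6.94 and 165. Array medians lay between 123.2 and 155.4, and the trimmed means of the arrays were equal to within 0.1 (999.8 to 999.9), so the deposited values had been scaled to a common mean.

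Promoter sequence is shown for CDK6, CCNE1 and CDK4, the genes that respectively fell, moved by line and, in the deposited scaling, rose with taurolidine. RefSeq windows were at hand for 7 of the 10 genes, and each run is the 250 bases before an annotated transcription start in GRCh38.p14, written 5′ to 3′ on the strand of the gene. Capitals mark matches, on either strand, to the GC box GGGCGG and the E-box CACGTG, and no matches overlapped. Of the 2 CDK6 windows the one at the upstream start is shown. The windows lie at chr7:92836574-92836823 (minus strand, CDK6), chr19:29811741-29811990 (plus strand, CCNE1) and chr12:57752311-57752560 (minus strand, CDK4).
CDK6: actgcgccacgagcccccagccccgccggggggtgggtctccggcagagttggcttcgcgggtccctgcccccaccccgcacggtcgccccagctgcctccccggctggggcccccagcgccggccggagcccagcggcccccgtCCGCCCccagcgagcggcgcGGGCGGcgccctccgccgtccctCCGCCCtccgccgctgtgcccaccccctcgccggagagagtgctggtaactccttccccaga
CCNE1: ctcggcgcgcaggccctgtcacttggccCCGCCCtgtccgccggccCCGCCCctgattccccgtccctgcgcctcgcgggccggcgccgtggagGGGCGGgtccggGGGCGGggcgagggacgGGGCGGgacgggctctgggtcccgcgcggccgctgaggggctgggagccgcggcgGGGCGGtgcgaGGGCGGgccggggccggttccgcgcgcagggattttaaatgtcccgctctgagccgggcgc
CDK4: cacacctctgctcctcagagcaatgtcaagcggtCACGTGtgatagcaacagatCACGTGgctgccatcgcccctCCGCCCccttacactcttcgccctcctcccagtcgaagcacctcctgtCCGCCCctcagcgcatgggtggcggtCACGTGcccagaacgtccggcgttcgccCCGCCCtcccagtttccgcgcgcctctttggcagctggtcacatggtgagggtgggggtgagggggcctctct
The GC box occurred 3 times before CDK6, 7 times before CCNE1 and 3 times before CDK4, and it was present in 42.6% of all 35116 promoter windows. The E-box occurred 3 times before CDK4 and not in the other pair, against 6.34% of all windows. Neither E2F sequence searched (TTTCCCGC and TTTGGCGC, in 1.39% and 0.55% of all windows), nor the AP-1 sequence TGANTCA (6.57%) nor the cyclic AMP element TGACGTCA (1.65%) was found in any window of the 7 genes. A match is a string of letters and no evidence of binding.

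The 3 lines differed in most of these genes. Averaged over the 4 arrays of a line, the line term was called for 15 of 21 probe sets and for 8 of 10 genes (limma F test, adjusted p under 0.05), while over the whole table it was called for 67.3% of probe sets and 72.3% of genes. The share called among these genes was thus near that of the array at large. By pairs of lines, 9 of 21 probe sets differed between A-204 and SK-LMS-1 (49.3% of the table), 14 between A-204 and VA-ES-BJ (49.7%) and 13 between SK-LMS-1 and VA-ES-BJ (50.4%). CDK4 and CCNE2 were the genes not called, with adjusted p of 0.0585 and 0.0977.

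**Figure D1:**
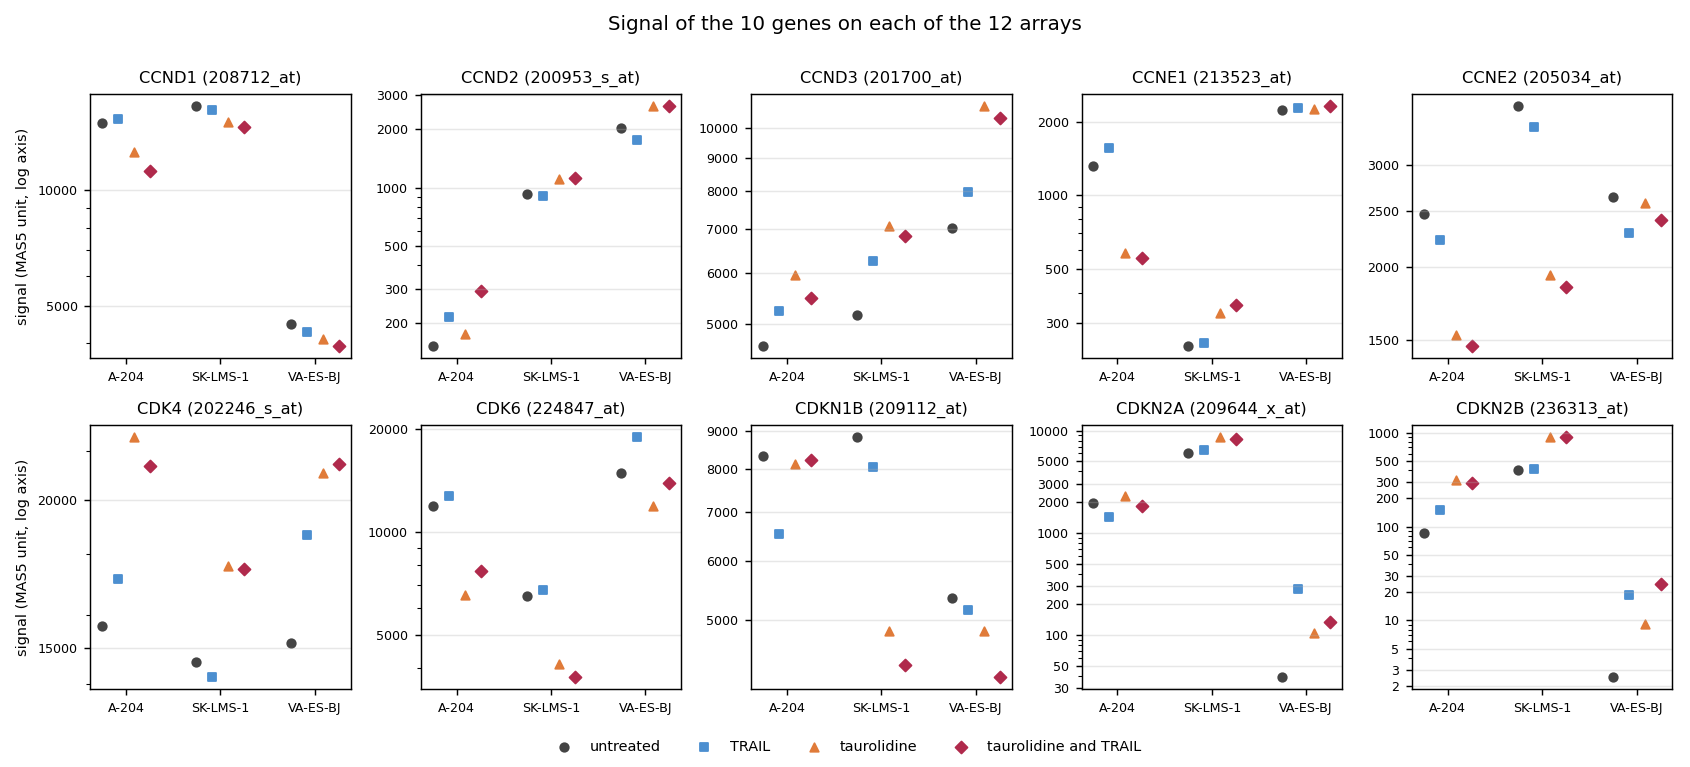
Deposited intensity (log axis, scale set per panel) of the leading probe set of each of the 10 genes, the tested one with the highest mean, with 1 panel per gene and 1 point per array, grouped by cell line and marked by treatment. CCND1 is lower in VA-ES-BJ, CCND2 lowest in A-204, CCNE1 lowest in SK-LMS-1, and CDKN2A and CDKN2B lie far below the other lines in VA-ES-BJ.

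Among the D cyclins, the main G1 cyclin gene CCND1 (208712_at) read 14980 in untreated A-204, 16613 for SK-LMS-1 and 4488 for VA-ES-BJ. Its mean over the 4 arrays was 13557 ± 1972 (SD, n = 4 treatments) for A-204, 15625 ± 929 for SK-LMS-1 and 4202 ± 237 for VA-ES-BJ. This SD runs over treatments and not over replicates. The ranges of A-204 and SK-LMS-1 overlapped, although SK-LMS-1 read higher under each treatment, and VA-ES-BJ stood below both. The difference from VA-ES-BJ was 1.68 ± 0.09 (log2 ± SE) for A-204 and 1.89 ± 0.09 for SK-LMS-1, both called. CCND2 (200953_s_at) ran the other way, with untreated values of 153 for A-204, 932 for SK-LMS-1 and 2040 for VA-ES-BJ. All 3 steps of that order were called, from -1.14 ± 0.16 for SK-LMS-1 against VA-ES-BJ to -3.39 ± 0.16 for A-204 against VA-ES-BJ. CCND3 (201700_at) read 4628, 5156 and 7025 in the untreated lines in the same order. VA-ES-BJ was higher than A-204 by 0.75 ± 0.10 and than SK-LMS-1 by 0.50 ± 0.10, and A-204 and SK-LMS-1 were not called apart (adjusted p = 0.0645).

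CCNE1 (213523_at), which encodes the cyclin that activates CDK2 at the G1 to S transition, read 1314 in untreated A-204, 241 for SK-LMS-1 and 2242 for VA-ES-BJ. All 3 pairwise differences were called, with VA-ES-BJ above SK-LMS-1 by 2.92 ± 0.34. Its close relative CCNE2 (205034_at) read 2468, 3793 and 2645, and no pair of lines was called apart. CDK6 (224847_at) read 11878 for A-204, 6487 for SK-LMS-1 and 14898 for VA-ES-BJ, and each pair was called, the widest being VA-ES-BJ over SK-LMS-1 by 1.52 ± 0.13. CDK4 (202246_s_at) was bright and even, at 15667, 14600 and 15139. CDKN1B (209112_at) read 8324, 8822 and 5352, and A-204 exceeded VA-ES-BJ by 0.67 ± 0.20 (adjusted p = 0.0249), the only pair called for it.

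With the constant of the main fit, the inhibitors CDKN2A and CDKN2B showed the widest range between lines among the 10 genes. CDKN2A (209644_x_at) read 1941, 2306, 1430 and 1832 for A-204 and 6063, 8669, 6405 and 8271 for SK-LMS-1 (untreated, taurolidine, TRAIL and both agents, an order kept from here on), but 38.5, 105, 281 and 133 for VA-ES-BJ. No array of VA-ES-BJ reached the lowest array of another line. The fitted difference was 3.89 ± 0.42 for A-204 over VA-ES-BJ (adjusted p = 0.000116) and 5.86 ± 0.42 for SK-LMS-1 over VA-ES-BJ (adjusted p = 1.2e-05). A second CDKN2A probe set (207039_at) read 525 to 850 for A-204, 1509 to 2198 for SK-LMS-1 and 3.40 to 32.4 for VA-ES-BJ, the same order. CDKN2B (236313_at) read 85.2, 314, 152 and 291 for A-204, 401, 899, 406 and 894 for SK-LMS-1, and 2.48, 9.16, 18.8 and 24.4 for VA-ES-BJ. A-204 also lay below SK-LMS-1 in both genes, by 1.97 ± 0.42 for CDKN2A and 1.63 ± 0.26 for CDKN2B. Detection calls were not used here, so a low reading is a dim probe set and not a proof of absent RNA. The size of a difference from so dim a line depends on the constant added before the log. For CDKN2A 209644_x_at in A-204 over VA-ES-BJ it was 2.92 with the table median as constant and 4.04 with a constant of 1, and for CDKN2B it was 1.15 and 4.01. For CDKN2B in SK-LMS-1 over VA-ES-BJ it was 4.68 in the main fit and 2.32 with the table median, so its rank may change with the constant.

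In RefSeq order on chromosome 9 the neighbours are KLHL9, MTAP, CDKN2A, CDKN2B-AS1, CDKN2B and DMRTA1. The neighbour MTAP, an enzyme of methionine salvage, was likewise dim in VA-ES-BJ by 4 of its 5 tested probe sets. Its leading probe set (211363_s_at) read 1154, 844, 1016 and 748 for A-204, 1133, 1146, 1133 and 874 for SK-LMS-1, and 29.9, 4.86, 69.0 and 97.8 for VA-ES-BJ. A-204 and SK-LMS-1 exceeded VA-ES-BJ in this probe set (adjusted p of 0.000136 and 0.000103), by a size that again depends on the constant. They were not called apart from each other (adjusted p = 0.757). In VA-ES-BJ the probe set stayed below the table median, so it passed the filter through the other lines alone. Its calls against VA-ES-BJ are thus no support independent of the values given. The fifth tested MTAP probe set, 211364_at, was not called apart in any pair of lines, at 163, 216, 105 and 149 for A-204, 148, 147, 183 and 184 for SK-LMS-1, and 217, 164, 236 and 83.4 for VA-ES-BJ. KLHL9, an adaptor of a ubiquitin ligase, was bright in all 3 lines, at 6686, 3765 and 5372 untreated (213233_s_at). CDKN2B-AS1 and DMRTA1 were dim on all 12 arrays (1.89 to 22.2 and 12.8 to 61.6) and untested. The values of VA-ES-BJ were thus low for CDKN2A, CDKN2B and 4 of 5 MTAP probe sets, and not for KLHL9. DNA was not measured, and copy number of the segment was not tested.

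**Figure D2:**
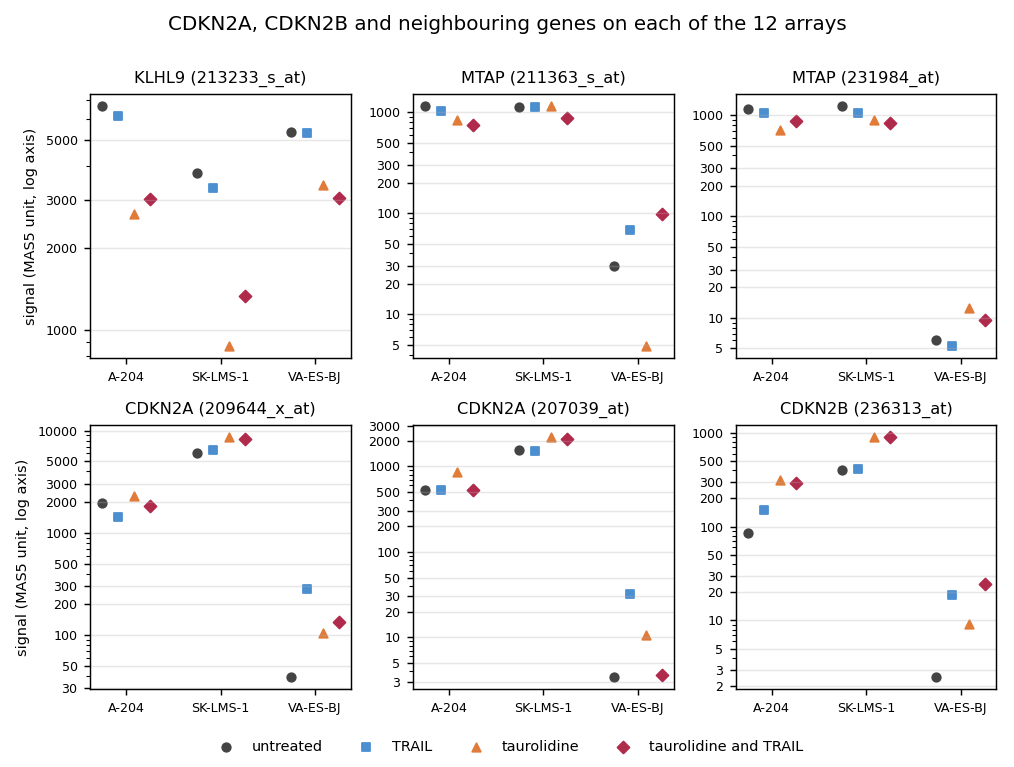
Deposited intensity (log axis, scale set per panel) of KLHL9, 2 probe sets of MTAP, 2 of CDKN2A and 1 of CDKN2B, with 1 point per array, grouped by cell line and marked by treatment. In the panels of MTAP, CDKN2A and CDKN2B the 4 points of VA-ES-BJ lie below all points of the other lines, and for KLHL9 they do not.

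Taurolidine changed 11 of the 21 probe sets when the 6 arrays with it were set against the 6 without it in the model with line and treatment (limma, Benjamini-Hochberg over all 32421 tested probe sets, adjusted p under 0.05). Of these, 3 rose and 8 fell, and across the array 28.4% of tested probe sets were called, 11% higher and 17.4% lower. By leading probe set 5 of 10 genes were called, CCND3, CDK4 and CDKN2B upward and CDK6 and CCNE2 downward, against 31.2% of all genes (14.4% higher, 16.8% lower). The median change of the 10 genes was 0.04, as it was over all genes. With A-204 left out 2 probe sets were called (7.64% of the table), with SK-LMS-1 left out 4 (12.1%), and with VA-ES-BJ left out 7 (11.7%). CDK6 probe sets 224848_at and 243000_at were called in each of those 3 fits (adjusted p of 0.0215 to 0.0259 and of 0.0187 to 0.0414). A fit that ignored the pairing by line (no block) called 1, CDK6 243000_at, and 3.44% of the table.

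**Figure D3:**
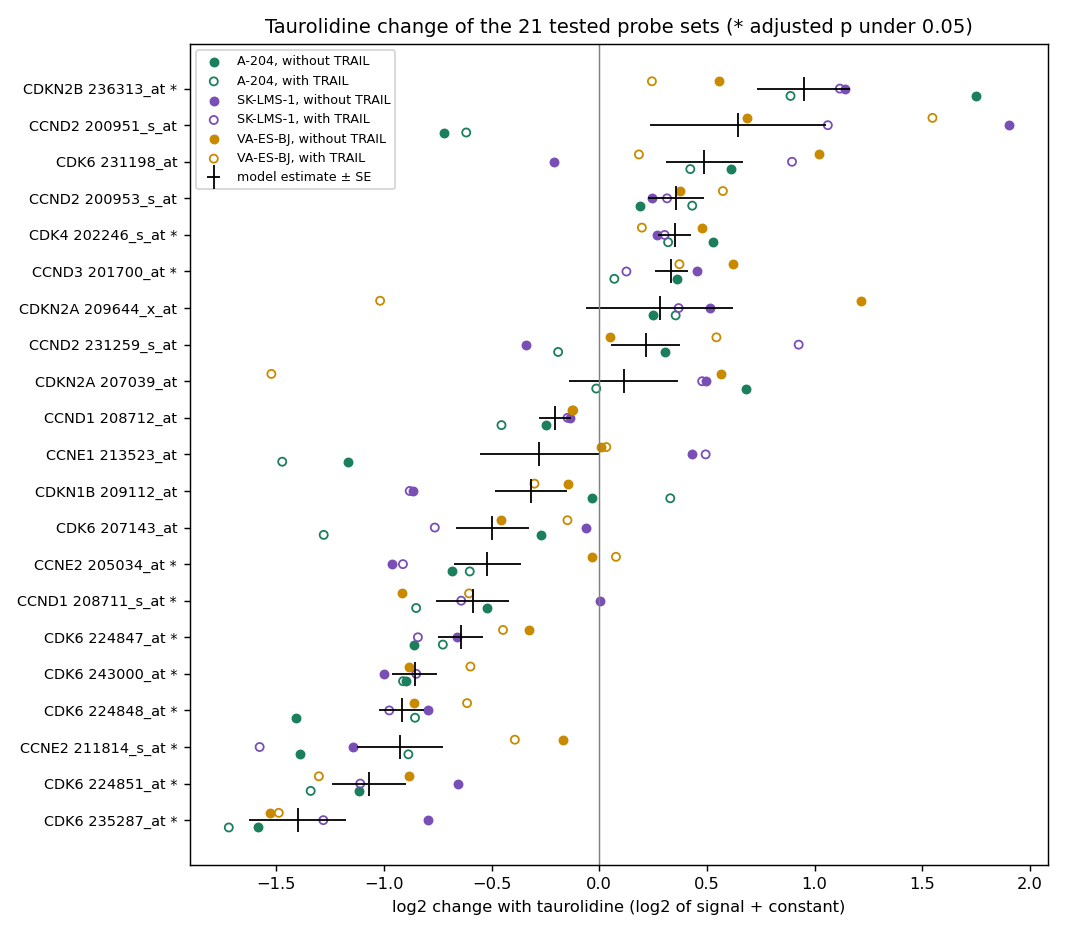
Change with taurolidine (log2 of intensity plus constant) of the 21 tested probe sets, where crosses with bars give the model estimate ± SE and each point is 1 line without TRAIL (filled) or with TRAIL (open). Asterisks mark the 11 called probe sets, 5 of them of CDK6 between -1.40 and -0.64, and the CCNE1 points separate by line.

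CDK6, a kinase that cyclin D activates, fell with taurolidine, with 5 of its 7 probe sets called and lower in all 3 lines. Probe set 224848_at read 9795, 3685, 8865 and 4894 for A-204, 3991, 2297, 4187 and 2124 for SK-LMS-1, and 13129, 7223, 12575 and 8213 for VA-ES-BJ. In each line both arrays with taurolidine lay below both without it. The fitted change was -0.92 ± 0.10 (log2 ± SE, 6 arrays against 6), or 1.89-fold lower, with an adjusted p of 0.000834. Probe set 224847_at, the brightest, read 11878, 6529, 12706 and 7675 for A-204, 6487, 4103, 6754 and 3762 for SK-LMS-1, and 14898, 11880, 18952 and 13900 for VA-ES-BJ. These arrays were also separated within each line, by a smaller margin in VA-ES-BJ, and the change was -0.64 ± 0.10, or 1.56-fold lower (adjusted p = 0.0038). This call was lost with A-204 left out (adjusted p = 0.0815) and with SK-LMS-1 left out (0.057).

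The other CDK6 probe sets held the same direction with 1 exception. Probe set 243000_at fell from 898 and 868 to 476 and 456 for A-204, from 963 and 1151 to 475 and 633 for SK-LMS-1, and from 989 and 811 to 531 and 532 for VA-ES-BJ, a change of -0.86 ± 0.10 (adjusted p = 0.00112). Probe set 224851_at changed by -1.07 ± 0.17 (adjusted p = 0.00371), although in SK-LMS-1 its groups touched, with 1714 untreated against 1727 for both agents. The largest estimate came from 235287_at, at -1.40 ± 0.23 or 2.64-fold lower (adjusted p = 0.00367), with 978 untreated and 247 under both agents in VA-ES-BJ. With A-204 left out neither passed (adjusted p of 0.0686 for 224851_at and 0.0861 for 235287_at), and 224851_at also did not pass with VA-ES-BJ left out (0.0562). Of the dim pair, 207143_at read 93.6 to 330 and changed by -0.50 ± 0.17 (adjusted p = 0.0628), and 231198_at read 135 to 315 and changed by 0.49 ± 0.18 (adjusted p = 0.0764), neither called.

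**Figure D4:**
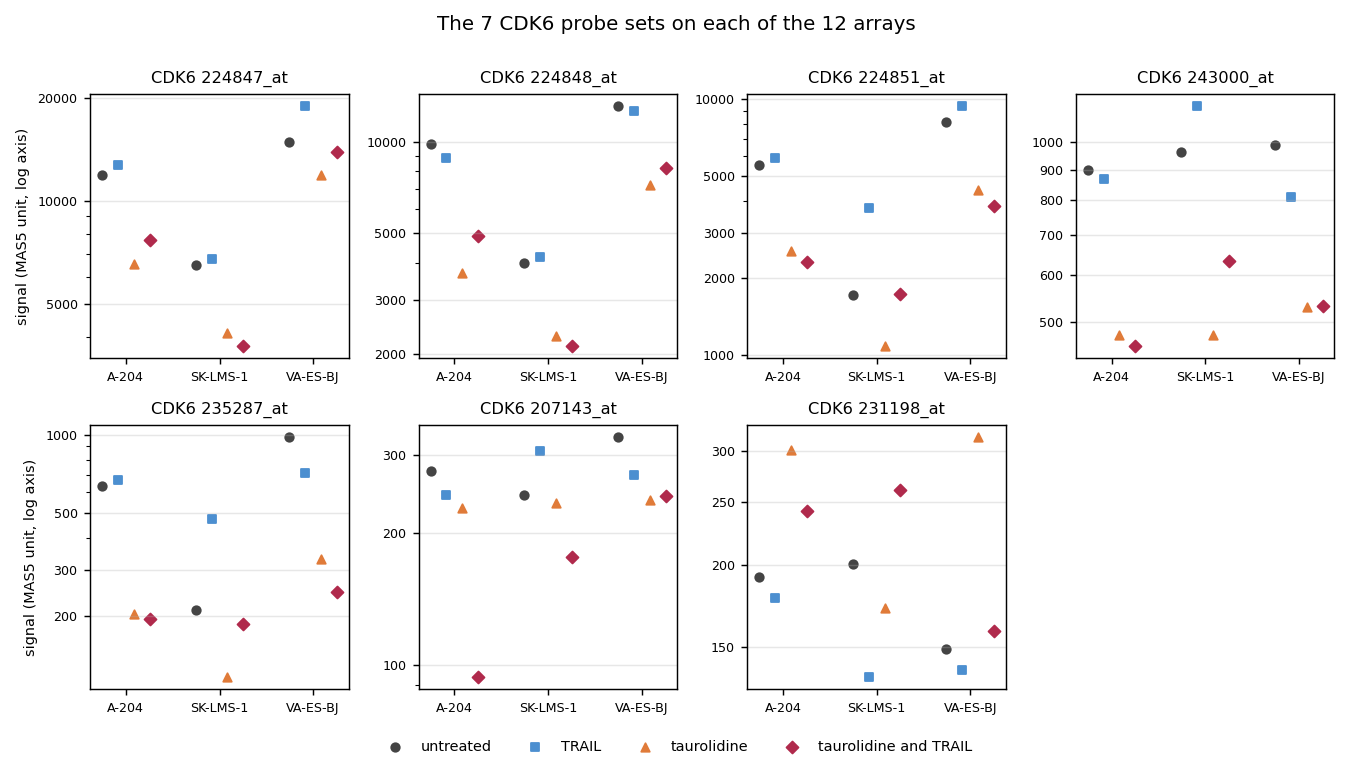
Deposited intensity (log axis, scale set per panel) of the 7 CDK6 probe sets, with 1 panel per probe set and 1 point per array, grouped by cell line and marked by treatment. In 207143_at, 224847_at, 224848_at, 235287_at and 243000_at both points with taurolidine lie below both points without it in each line, and in 224851_at and 231198_at they do not.

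CDK4, the partner kinase of CDK6, was higher with taurolidine in the values as deposited. Its only probe set read 15667, 22625, 17150 and 21405 for A-204, 14600, 17598, 14171 and 17490 for SK-LMS-1, and 15139, 21108, 18704 and 21456 for VA-ES-BJ. Both arrays with taurolidine exceeded both without it in every line, and the change was 0.35 ± 0.08, or 1.27-fold higher (adjusted p = 0.0124). CCND3 was higher in the same way, with 4628, 5943, 5230 and 5490 for A-204, 5156, 7074, 6248 and 6819 for SK-LMS-1, and 7025, 10817, 7989 and 10342 for VA-ES-BJ. Its change was 0.33 ± 0.08, or 1.26-fold higher (adjusted p = 0.0155). Neither gene passed with any 1 of the lines left out, where the adjusted p lay between 0.0787 and 0.145 for CDK4 and between 0.0902 and 0.139 for CCND3.

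The direction of these small rises depended on the scaling. The 27 probe sets of the poly-A control transcripts read higher with taurolidine by 0.73 for A-204, 0.52 for SK-LMS-1 and 0.54 for VA-ES-BJ (log2). When the arrays were scaled to those transcripts, the median change of all tested probe sets moved from -0.02 to -0.58 in the comparison of taurolidine, and CDK4 changed by -0.24 (adjusted p = 0.0401) and CCND3 by -0.26 (adjusted p = 0.0541). Of all calls for taurolidine, 38.7% were upward as deposited, 51.1% after quantile normalisation, 44.6% with equal array medians and 1.06% with the poly-A scaling. CDK4 and CCND3 stood above the median probe set both as deposited and with the poly-A scaling. Scaling by a common factor per array hardly moves a bright probe set relative to the median one, so it cannot test that position. The absolute direction of CDK4 and CCND3 was not settled. Whether the control transcripts were added in equal amounts was not tested.

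The other D cyclins differed between their probe sets. CCND1 (208712_at) read 14980, 12623, 15392 and 11233 for A-204, 16613, 15101, 16179 and 14609 for SK-LMS-1, and 4488, 4106, 4279 and 3934 for VA-ES-BJ. Arrays with taurolidine were the lower pair in each line, but the change was -0.21 ± 0.08 (adjusted p = 0.0773). The dimmer CCND1 probe set 208711_s_at changed by -0.59 ± 0.17 and was called (adjusted p = 0.0346), with overlapping arrays in SK-LMS-1 (3109 untreated against 3116 with taurolidine). That call was also lost without each of the lines (adjusted p from 0.0553 to 0.24). CCND2 (200953_s_at) read 932, 1107, 903 and 1126 for SK-LMS-1 and 2040, 2646, 1763 and 2631 for VA-ES-BJ, with a change of 0.35 ± 0.13 that was not called (adjusted p = 0.0756). In A-204 this probe set stayed between 153 and 293. A second, dimmer CCND2 probe set (200951_s_at) read 24.7, 10.3, 41.0 and 22.6 for A-204, 48.0, 212, 80.2 and 180 for SK-LMS-1, and 182, 299, 73.8 and 238 for VA-ES-BJ. It was lower with taurolidine in A-204 and higher in the other lines, and the change of 0.64 ± 0.41 was not called (adjusted p = 0.279). The third, 231259_s_at, read 94.5 to 303 and changed by 0.22 ± 0.16 (adjusted p = 0.35).

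Separation of the arrays within every line can be set against the table as a whole. Both arrays with taurolidine were below both without it in all 3 lines for 6 of the 21 probe sets, namely CCND1 208712_at and CDK6 207143_at, 224847_at, 224848_at, 235287_at and 243000_at, against 14.6% of all tested probe sets. They were above in all 3 lines for 2, CDK4 and CCND3, against 10.2%.

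CCNE1 responded by line. It read 1314, 579, 1565 and 557 in A-204, so that arrays with taurolidine were well below those without it. It read 241, 329, 249 and 356 for SK-LMS-1, where the arrays with taurolidine were the higher pair, and 2242, 2251, 2277 and 2329 for VA-ES-BJ, where the 4 arrays were close together. The change was -1.32 for A-204, 0.46 for SK-LMS-1 and 0.02 for VA-ES-BJ, each from 2 arrays against 2, and the average over lines, -0.28 ± 0.28, was not called (adjusted p = 0.49). The rise in SK-LMS-1 was smaller than the 0.52 by which the poly-A control transcripts were higher there. Its absolute direction was thus not settled. The difference between lines in the response was called (limma F test of line by taurolidine, adjusted p = 0.0337), also with the poly-A scaling (0.0408). It was not called with equal array medians (0.0641) or with no filter on dim probe sets (0.153). CCNE1 was 1 of 21 probe sets with such a difference, against 0.25% of the table.

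CCNE2 fell over the lines, with separate arrays in A-204 and SK-LMS-1. Its brighter probe set 205034_at read 2468, 1530, 2228 and 1465 for A-204 and 3793, 1941, 3493 and 1851 for SK-LMS-1, with clear separation, but 2645, 2581, 2289 and 2416 for VA-ES-BJ, with overlap. Over the lines the change was -0.52 ± 0.16 (adjusted p = 0.0393), and the lines were not called apart (adjusted p = 0.0925), although they were with an intensity trend (0.00933), a filter on all 12 arrays (0.0228), 1 probe set per gene (0.0372) and the table median as constant (0.0469). The second probe set 211814_s_at read 1086, 407, 985 and 528 for A-204, 1390, 623, 1465 and 483 for SK-LMS-1, and 1087, 965, 950 and 721 for VA-ES-BJ. It changed by -0.93 ± 0.20, or 1.90-fold lower (adjusted p = 0.0115). Without A-204 the adjusted p of the 2 probe sets was 0.267 and 0.124, and without SK-LMS-1 it was 0.282 and 0.12.

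Of the inhibitors, CDKN2B rose with taurolidine and the others were not called. The CDKN2B values given above went from 85.2 and 152 to 314 and 291 for A-204 and from 401 and 406 to 899 and 894 for SK-LMS-1, and the change was 0.95 ± 0.22, or 1.93-fold higher (adjusted p = 0.0141). In VA-ES-BJ the gene stayed at 24.4 or less and its arrays overlapped, so the rise was seen in the lines that had a signal. It did not pass without A-204 (adjusted p = 0.161) or without SK-LMS-1 (0.099). The poly-A control transcripts, given above, were higher by less than CDKN2B in A-204 and SK-LMS-1 and by more in VA-ES-BJ (0.54 against 0.40). With the arrays scaled to them the change of CDKN2B was 0.46 (adjusted p = 0.0486). CDKN2A (209644_x_at) changed by 0.28 ± 0.34 (adjusted p = 0.578). In SK-LMS-1 both of its arrays with taurolidine (8669 and 8271) exceeded both without it (6063 and 6405).

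CDKN1B did not pass over the lines, at -0.32 ± 0.17 (adjusted p = 0.194). In SK-LMS-1 it read 8822, 4834, 8032 and 4358, the lower pair being the arrays with taurolidine. In A-204 it read 8324, 8124, 6528 and 8207 and in VA-ES-BJ 5352, 4832, 5166 and 4191. The changes were 0.15 for A-204, -0.87 for SK-LMS-1 and -0.22 for VA-ES-BJ, and this difference between lines was not called (adjusted p = 0.116), although it was with an intensity trend (0.00981) and a filter on all 12 arrays (0.0334).

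Against untreated cells alone, with 3 arrays on each side, taurolidine changed 8 of 21 probe sets (3 higher, 5 lower) against 13.6% of the table (3.92% higher, 9.65% lower). These were CCND3, CDK4, CDKN2B and 5 probe sets of CDK6, and the largest change was -1.30 ± 0.32 for CDK6 235287_at. Both agents together changed 7 (3 higher, 4 lower) against 12.8% (3.67% and 9.1%), and these included CCNE2 211814_s_at, at -1.04 ± 0.28 (adjusted p = 0.0489). CDKN2B rose by 1.15 ± 0.30 with taurolidine and by 1.37 ± 0.30 with both agents. The 2 comparisons share their untreated arrays. Taurolidine added to TRAIL changed 5 probe sets, all of CDK6 and all lower, against 11.2% (3.33% higher, 7.88% lower). With A-204 left out, or VA-ES-BJ left out, all 3 of these counts were 0, and with SK-LMS-1 left out they were 1, 2 and 2. With no block for the line they were 0 as well. The share of the table called in these further fits was not computed.

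TRAIL alone changed none of these genes detectably at 6 hours. None of the 21 probe sets was called by limma for TRAIL against untreated cells, and 0% of the table was called. None had an unadjusted p under 0.05, against 1393 of the 32421 tested probe sets. The estimates lay between -0.40 and 0.73 with an SE of 0.11 to 0.58, so small changes relative to these errors were not detectable with 3 arrays a group. CDK6 224848_at, for example, read 9795 untreated and 8865 with TRAIL for A-204, 3991 and 4187 for SK-LMS-1, and 13129 and 12575 for VA-ES-BJ. CCND1 208712_at read 14980 and 15392, 16613 and 16179, and 4488 and 4279 in the same pairs. Among the tested probe sets the widest difference in 1 line, on the log2 scale of the fit, was CDKN2A 209644_x_at in VA-ES-BJ, 38.5 untreated against 281 with TRAIL, in a line where the probe set is dim, and the fitted change over the lines, 0.73 ± 0.48, was not called.

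TRAIL added to taurolidine also changed none of the 21, with estimates from -0.51 to 0.24. In the test over all 12 arrays TRAIL changed none, and CDKN2B had the largest estimate, 0.42 ± 0.22, with adjusted p of 1. The title of the series asks about synergy, which was addressed here as the departure of the combination from the sum of the single effects on the log2 scale. None of the 21 departed (0% of the table was called, 1375 probe sets at an unadjusted p under 0.05 and none of these genes), with estimates from -0.93 to 0.42 and an SE of 0.15 to 0.82.

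**Figure D5:**
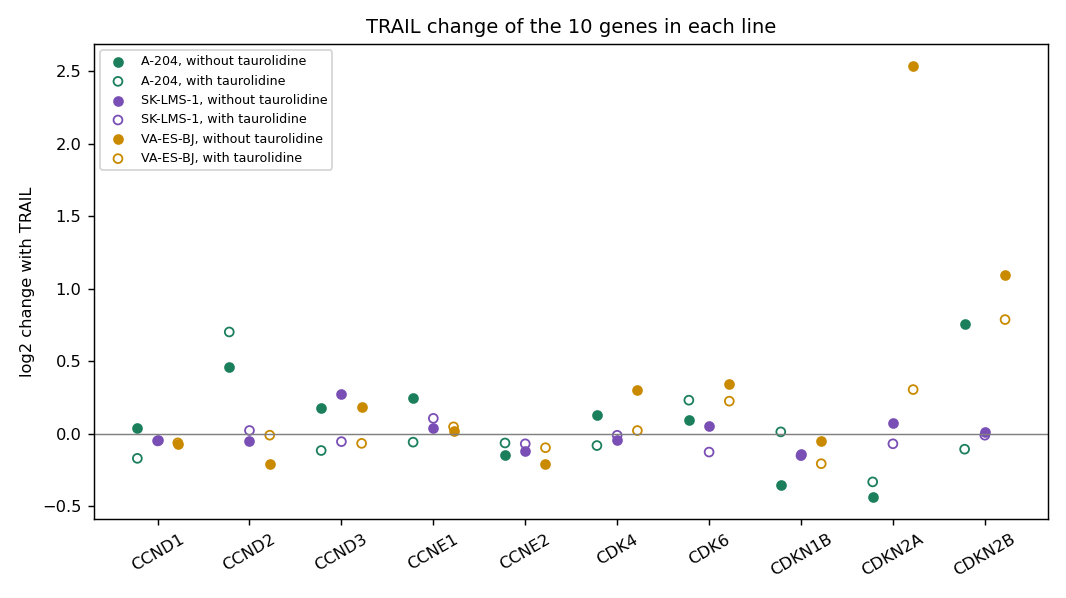
Change with TRAIL (log2 of intensity plus constant) of the leading probe set of each of the 10 genes, with 1 point per line without taurolidine (filled) and with it (open). The points lie on both sides of 0 for most genes, and the widest values are those of CDKN2A and CDKN2B in VA-ES-BJ, where both genes are dim.

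The rest of the pathway was read from lists of genes around the 10, by 1 leading probe set per gene, in the comparison of arrays with and without taurolidine (all genes: 31.2% called, median 0.04). Of 3 tested other CDK inhibitors none was called. CDKN1A (p21), a target of p53, changed by 0.45 ± 0.17 (adjusted p = 0.09), CDKN1C (p57) by 1.14 ± 0.45 (adjusted p = 0.0954) and CDKN2D (p19) by 0.21 ± 0.14. For CDKN1C the lines gave 0.50, 2.83 and 0.08, and SK-LMS-1 went from 246 untreated to 2168 with taurolidine.

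Of 7 tested CDK partners and activators 1 rose and 3 fell, with a median of -0.52. CDC25A, the phosphatase that removes an inhibitory phosphate from CDK2, read 818, 135, 758 and 24.9 for A-204, 633, 19.7, 727 and 305 for SK-LMS-1, and 608, 59.9, 783 and 65.8 for VA-ES-BJ, and it changed by -3.16 ± 0.56 (adjusted p = 0.00543). All 6 arrays with taurolidine were below all 6 without it, and 5 of them lay under the table median, so the size depends on the constant. The other tested CDC25A probe sets changed by less, one by -1.92 ± 0.28 (adjusted p = 0.00235) and the other by -0.55 ± 0.21 (adjusted p = 0.0889). CCNA2, the cyclin of S phase, fell by 0.66 ± 0.17 and CDK7, a kinase that activates other CDKs, fell by 0.52 ± 0.14. The fall of this CCNA2 probe set came from SK-LMS-1 and VA-ES-BJ. In A-204 it read 8109, 7780, 7625 and 7600, a change of -0.03. The lines were not called apart (limma F test of line by taurolidine, adjusted p = 0.093). The other tested CCNA2 probe set was lower in A-204 as well, by 0.61 against untreated cells and by 0.38 when added to TRAIL. CDK2, the partner of cyclin E, rose by 0.45 ± 0.09 in the deposited scaling.

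Of 13 tested pocket protein and E2F genes 1 rose in the deposited scaling (E2F1) and 5 fell (E2F3, E2F5, E2F6, E2F7 and RBL1), with a median of -0.34. E2F3, an activating member, read 1344, 423, 1950 and 322 for A-204, 2944, 1115, 3143 and 1368 for SK-LMS-1, and 3778, 680, 4210 and 771 for VA-ES-BJ, and changed by -1.94 ± 0.20 (adjusted p = 0.000597). E2F6, a repressing member, changed by -1.90 ± 0.19, E2F5 by -1.30 ± 0.17 and E2F7 by -0.91 ± 0.11. RB1 itself was not called by its leading probe set (0.11 ± 0.08), while its other tested probe set changed by -0.66 ± 0.10 (adjusted p = 0.00236).

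Of 12 tested genes that govern turnover of the G1 cyclins and p27, 2 rose in the deposited scaling (CKS1B and RNF123) and 6 fell (AMBRA1, CUL1, CUL3, FBXO31, FBXW7 and SKP2), with a median of -0.31. FBXW7, the substrate receptor for cyclin E, changed by -1.98 ± 0.15, or 3.95-fold lower (adjusted p = 0.000178), from a mean of 851 in untreated cells to 186 with taurolidine. FBXO31, a receptor for cyclin D1, changed by -1.24 ± 0.12, and the scaffolds CUL1 and CUL3 by -0.75 ± 0.14 and -0.59 ± 0.13.

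Of 16 tested E2F targets of S phase 8 rose and none fell in the deposited scaling, with a median of 0.27. MCM5 and MCM6, subunits of the replicative helicase, rose by 0.58 ± 0.09 and 0.44 ± 0.09, TK1 by 0.38 ± 0.08 and POLA1 by 0.33 ± 0.08. The other called genes were CDC45, MCM2, MCM7 and RRM2. The 4 rises given are smaller than the 0.59 by which the poly-A control transcripts were higher with taurolidine, and their part in the result was not tested. Of the chromosome 9 neighbours KLHL9 fell by its leading probe set, by 1.20 ± 0.17 (adjusted p = 0.0024), and MTAP was not called. For taurolidine added to TRAIL the KLHL9 probe set 213117_at also fell, at -1.59 ± 0.22 (limma, adjusted p = 0.00616). The dim KLHL9 probe set 233197_at was higher there, at 0.98 ± 0.24 (limma, adjusted p = 0.0403). Its arrays without taurolidine read 89.6 to 135.6, below the table median, so it passed the filter only through arrays with taurolidine. That call is thus no independent support for a rise. In SK-LMS-1 the probe set read 126.9 untreated and 122.5 with taurolidine, while it was higher with taurolidine in the other lines. With TRAIL none of the genes in any of these lists was called.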

How the data were processed

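RNA from 3 cell lines under 4 treatments was measured on 12 Affymetrix arrays. The authors deposited array intensity on a linear scale, made with MAS5 per the submitters' processing notes. Detection calls were not used here. The version of MAS5 and its target value are not given in the sources consulted here. Probe sets were named by the platform annotation (41097 with 1 gene, 1801 with several, 11777 with none listed), updated by Entrez number for 41043. Control probe sets (62) were not tested.

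From these values log2(intensity + 11.8) was computed, with the table's 10th percentile as the constant, which understates fold changes of dim genes. Probe sets above the table median on at least 3 arrays were tested (32421). limma 3.58.1 (R 4.3.3) fitted treatment plus cell line (6 residual and 2.04 prior degrees of freedom), with Benjamini-Hochberg adjustment over all tested probe sets and a threshold of 0.05. The response by line was tested in a model with line by taurolidine and TRAIL (5 residual degrees of freedom). The line entered as the block, since its 4 arrays share the same cells. The number of arrays limits the precision.

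The 10 genes and the lists were chosen with earlier results of these data known. All probe sets of the 10 genes are accounted for, and of each other list up to 4 genes of smallest p for taurolidine are given with values, passing ones first, with the other called genes by name only. Probe sets ending in _s_at or _x_at may detect relatives. The alternatives were other constants, filters, scalings, 1 probe set per gene, no block, an intensity trend, only the arrays compared, and leaving out each line.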

Additional observations from a re-analysis of the deposited data

Results flagged for a closer look

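The response of CCNE1 (213523_at) to taurolidine differed between the lines by a test of the difference itself (limma F test of line by taurolidine, adjusted p = 0.0337). The gene changed by -1.32 on the log2 scale in A-204, by 0.46 in SK-LMS-1 and by 0.02 in VA-ES-BJ, each from 2 arrays with and 2 without taurolidine. The rise in SK-LMS-1 was smaller than that of the poly-A control transcripts there (0.52), so its absolute direction was not settled. Over the alternative settings the adjusted p of the line difference ranged from 0.00286 to 0.153. It missed the threshold with no filter (0.153) and with equal array medians (0.0641).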

How the results depend on the processing

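Counts below are of the 21 tested probe sets of the 10 genes unless stated. With no filter on dim probe sets the calls were 2 for taurolidine against untreated cells, 2 for both agents, 7 for taurolidine over both TRAIL states, 0 for taurolidine added to TRAIL and 0 for line differences in the response. With 1 probe set per gene (10 genes) they were 4, 4, 6, 1 and 2, and for the lines 8 for A-204 against VA-ES-BJ, 8 for SK-LMS-1 against VA-ES-BJ and 9 for the line term. Without the replicate block of the cell line they were 0, 0, 1 and 0. With only the arrays compared, taurolidine and both agents gave 0 each. Leaving out 1 line gave 0 to 1 for taurolidine, 0 to 2 for both agents, 2 to 7 for taurolidine over both TRAIL states and 0 to 2 for taurolidine added to TRAIL. Quantile normalisation gave 5 for taurolidine, and equal array medians gave 4 for both agents and 0 for the line response. Scaling to the poly-A transcripts gave 12 for both agents, 11 for taurolidine added to TRAIL and 14 for A-204 against SK-LMS-1. An intensity trend gave 11, 8, 14 and, for the line response, 3. The filter on all 12 arrays gave 9 for A-204 against VA-ES-BJ and 3 for the line response, and the constant at the table median gave 2 for the latter. For taurolidine over both TRAIL states the share of all tested probe sets called was 28.4% in the main analysis, 10.7% with no filter, 34.6% with 1 probe set per gene, 3.44% with no block, 7.64% to 12.1% with a line left out, 66.5% with the poly-A scaling and 32.7% with the trend. For the other comparisons the share of the table under the alternative settings was not computed, so those counts are not results about these genes. The cause of the shifts between settings was not tested.

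Under the poly-A scaling CCND3 turned to -0.16 for taurolidine, -0.0514 for both agents and -0.26 over both TRAIL states, and CDK4 to -0.21, -0.0495 and -0.24. Over all single probe sets and settings 2743 values kept their side of the threshold, 92 newly passed, 186 no longer passed and 6 reversed. The lower CDKN2A and CDKN2B of VA-ES-BJ kept direction and call in each alternative run that tested this difference. The filter that required every array to exceed the table median removed these probe sets, because VA-ES-BJ was dim in them. It therefore cannot test the difference. Runs with no block or with a line left out gave no value for it. MAS5 values below the table median are weakly determined, and no line had a repeated treatment.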
